A study of Arabidopsis thaliana with 4 samples.

Results

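ANAC060 is a NAC-domain transcription factor of Arabidopsis thaliana linked to sugar and abscisic acid (ABA) signalling. The peaks described here were listed for ANAC060 in seedlings grown without glucose, had no counterpart in the list from seedlings grown with glucose, and were centred beside protein-coding genes. They are called no-glucose-only peaks beside genes. A peak was taken if it shared no base with any glucose peak and if its centre lay outside every protein-coding gene body but within 1 kb of a protein-coding gene. Of 4155 peaks in the no-glucose list 2091 had no overlap with the glucose list, and 1117 of these (26.9% of the list) were centred beside genes. Both lists together held 7014 peaks.

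Chromatin was taken from 10-d-old whole seedlings of the 35S:ANAC060-GFP/anac060 line in the Columbia ecotype, and a polyclonal anti-GFP antibody was used to pull down the tagged protein. In this line the 35S promoter, which is active in most tissues, drives ANAC060 with a green fluorescent protein tag, and the gene's own copy is mutant. The 2 precipitates came from seedlings grown with 6% glucose and without glucose, and each was set against input DNA, taken without antibody, from Col-0 wild type of the same treatment. Each of the 4 groups had 1 library, so no value below has a replicate check, and exact binomial intervals cover counting error only. A mock precipitate of plants without the tag was not used here. The protocol also names 6% sorbitol, without saying which samples received it. Read depth was unknown.

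NAC factors bind DNA through a conserved N-terminal domain and form one of the largest families of plant transcription factors. Many act in stress, senescence and development. Binding of a transcription factor in the sequence next to a gene is one step by which its transcription can be set, but a peak there does not show that the gene responds. No sequence under the peaks is given here, because no genome was used.

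The presence of these peaks in one list and their absence from the other chose them, so their scores are a description without a test. The score is the authors' own value for each peak, on a range that fits a rescaled negative log10 of the peak caller's p-value, so a higher score means a smaller p against input. Such a score also depends on read number and peak width and is not a fold enrichment. The lists started at different scores, 100.01 without glucose and 30.02 with glucose. A region without a glucose peak therefore had no peak called there at 30.02 or more, which does not show that ANAC060 was absent from it.

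The highest-scoring of these peaks lay beside BT2, a BTB and TAZ domain protein of nitrogen and sugar signalling. Its peak at chr3:17907726-17915306 (TAIR10) had a score of 942, rank 82 of the list, and was 7581 bp wide. Its centre lay 777.5 bp from BT2, no other protein-coding gene came within 1 kb, and the nearest glucose peak was 38623 bp away. The next peaks were those by AT1G26920 (score 878), AT5G21940 (863), AT5G19875 (763) and AT2G36320 (748), which carry no gene symbol in the annotation. BT2 thus stood at the head of the set by a small margin, followed by 4 loci without a symbol.

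EBF2, an F-box protein that targets the ethylene factor EIN3 for breakdown, followed with a peak at chr5:8796443-8800086 (score 623, centre 915 bp from the gene). WRKY36, a WRKY-domain transcription factor gene, had a peak at chr1:26278537-26281869 (score 622, centre 947.5 bp away). These centres lay near the outer limit of 1 kb, with the nearest glucose peaks 22060 and 14357 bp away. HRS1, a factor of the root response to phosphate and nitrate, had a score of 503. PERK1, a proline-rich extensin-like receptor kinase gene, had 502. OXS3, a gene of oxidative stress tolerance, had 499.93, and GIK, which encodes an AT-hook DNA-binding protein, had 487. ESL1, a gene of the ERD6-like sugar transporters, had 473. Of these genes, only ESL1 was also touched, at the gene or its 1 kb flanks, by a glucose peak, and the glucose peak nearest to its no-glucose-only peak was 3612 bp away.

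**Figure D1:**
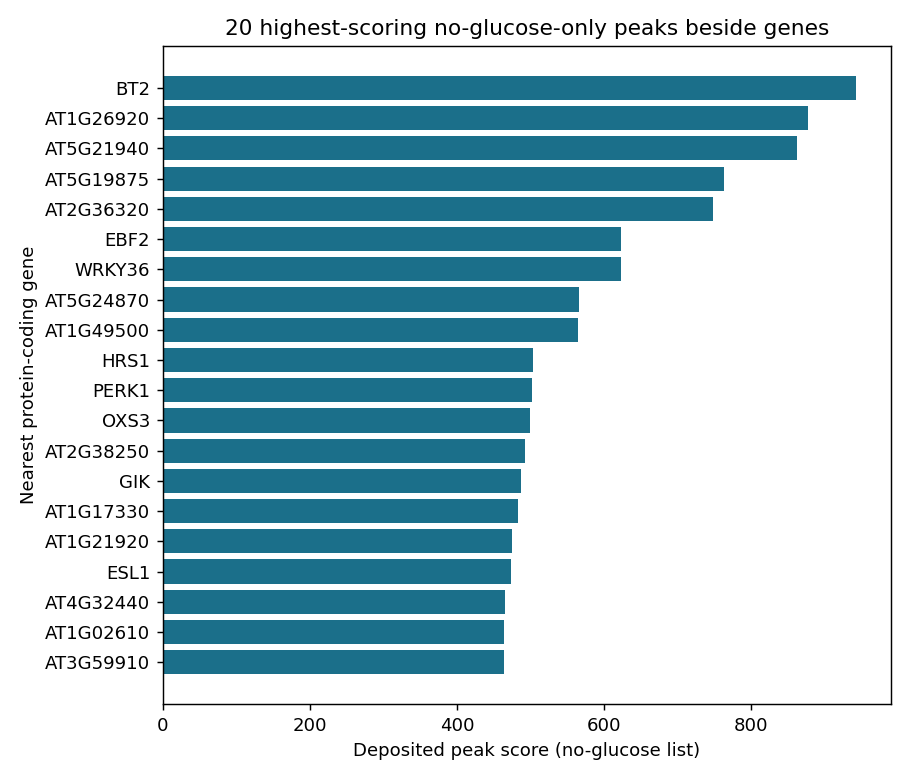
Bars give the deposited score of the 20 highest-scoring no-glucose-only peaks beside genes, each named by the protein-coding gene nearest to its centre (1 library, no error bars). Scores fall from 942 at BT2 to 463 at AT3G59910.

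These 20 highest peaks were broad. Their widths ran from 2279 to 7581 bp with a median of 3739 bp, and their centres lay at a median of 629 bp from the nearest gene. For 15 of the 20 a single protein-coding gene lay within 1 kb, and 12 of the 20 nearest genes had no symbol, against 562 of the 1108 nearest genes of all peaks in the set (50.7%) and 62.2% of all protein-coding genes. Among the nearest genes ESL1 and AT1G02610 were touched by a glucose peak, 2 of 20, against 138 of 1108 over the set (12.5%, 10.6 to 14.5). Gaps to the nearest glucose peak ran from 1097 bp at AT1G02610 to 38623 bp at BT2.

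Most of the 1117 peaks scored far lower. The median score was 152.69 (interval of the median 148 to 157), the quartiles were 119.67 and 204.04, and 541 peaks (48.4%, 45.5 to 51.4) scored under 150. A score of 300 or more was reached by 85 peaks and a score of 500 or more by 11. Among peaks beside genes that did overlap a glucose peak, which numbered 1045, the median score was 238. For no-glucose-only peaks centred in gene bodies it was 138, lower than in the set, and over the whole no-glucose list 180. No peak of the set was among the 50 highest of the no-glucose list, 3 were among the highest 100, 31 among the highest 500 and 100 among the highest 1000. The set therefore lay mostly in the lower ranks of its list.

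Across score classes the share of peaks beside genes with no glucose counterpart went down step by step. It was 72.2% (68.9 to 75.4) of 749 peaks with scores from 100 to under 150, 59.7% (55.1 to 64.1) of 471 from 150 to under 200, 42.1% (37.7 to 46.6) of 499 from 200 to under 300, and 9.09% (4.63 to 15.7) of 121 from 500 to under 1000. None of the 16 peaks beside genes at 1000 or more belonged to the set, which allows a share of up to 20.6%. For peaks centred in gene bodies the share was 69.0% (65.3 to 72.5), 53.0% (47.5 to 58.5), 36.0% (30.3 to 42.0) and 8.14% (3.33 to 16.1) in these 4 classes. The intervals of both positions overlapped in every class.

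**Figure D2:**
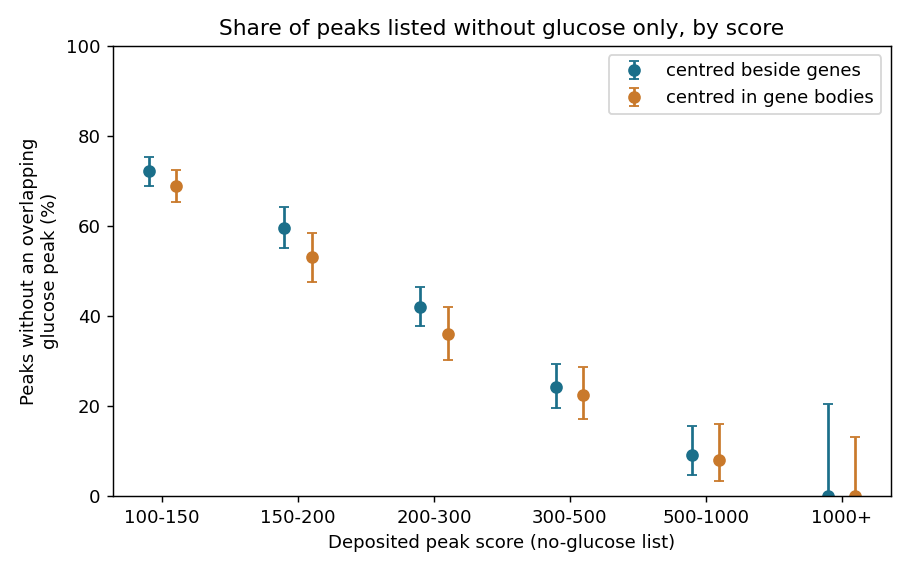
Points give the percentage of no-glucose peaks without an overlapping glucose peak in each class of deposited score, for peaks centred beside genes and in gene bodies, with exact 95% binomial intervals. Both shares fall from 72.2% and 69.0% in the lowest class to 0 at scores of 1000 or more.

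Score, width and position varied together within the set. In the lowest quartile of scores the median width was 1456 bp and the median distance from centre to gene 136.5 bp. In the highest quartile, with scores from 204.05 to 942, these medians were 2398 and 373.5 bp. The intermediate quartiles gave 1558 and 1884 bp for width and 160 and 271.5 bp for distance. The share of peaks with a single gene within 1 kb went from 48.2% in the lowest quartile to 59.5% in the highest. The median gap to the nearest glucose peak did not follow, at 10448, 9481, 9342 and 10920 bp from the lowest to the highest quartile.

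**Figure D3:**
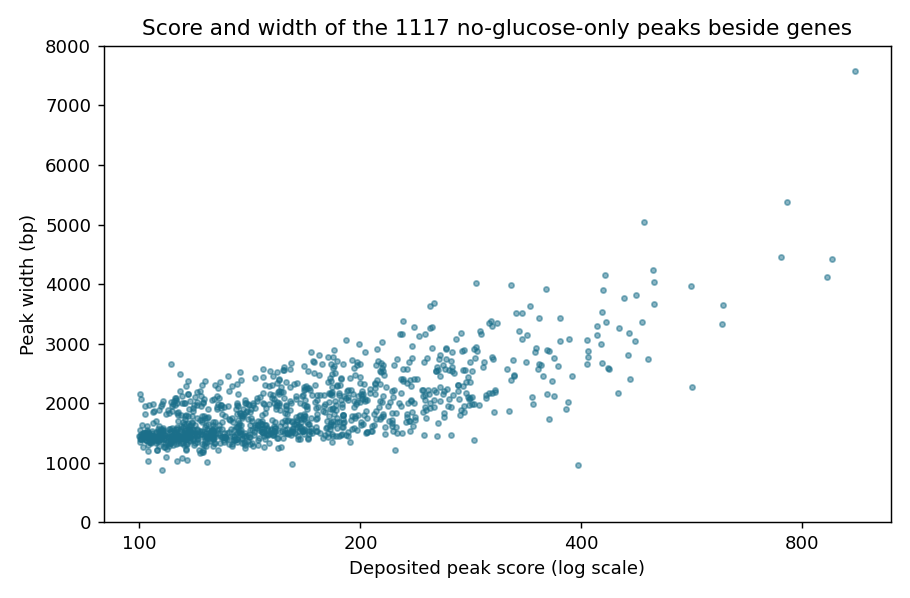
Each point is 1 of the 1117 no-glucose-only peaks beside genes, with its deposited score on a log axis and its width in bp. Low-scoring peaks gather near 1456 bp, the median width of the lowest quartile of scores, and the BT2 peak stands apart at 7581 bp.

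The centres gathered close to gene ends. The median distance to the nearest gene was 224 bp (208.5 to 247.5), and 323 of the 1117 centres (28.9%, 26.3 to 31.7) lay within 100 bp of a gene, a zone that makes up 17.4% of the sequence within 1 kb of genes. That is 76.4 centres per Mb of such sequence, against 53.9 from 100 to 250 bp, 44.0 from 250 to 500 bp, 34.1 from 500 to 750 bp and 19.3 from 750 to 1000 bp. Peaks beside genes that overlapped a glucose peak had 57.2 centres per Mb within 100 bp, with 23.2% of centres there (20.6 to 25.8), and 53.1, 47.5, 31.2 and 20.4 in the other zones. The intervals of the shares within 100 bp did not overlap. The set and the shared peaks also differed in score (medians 152.69 and 238.46) and width (1741 and 1924 bp). Within the set, median distance rose with score. The shares were not compared at equal score or width. The gene table used gives no strand, so the start and the end of a gene could not be told apart.

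**Figure D4:**
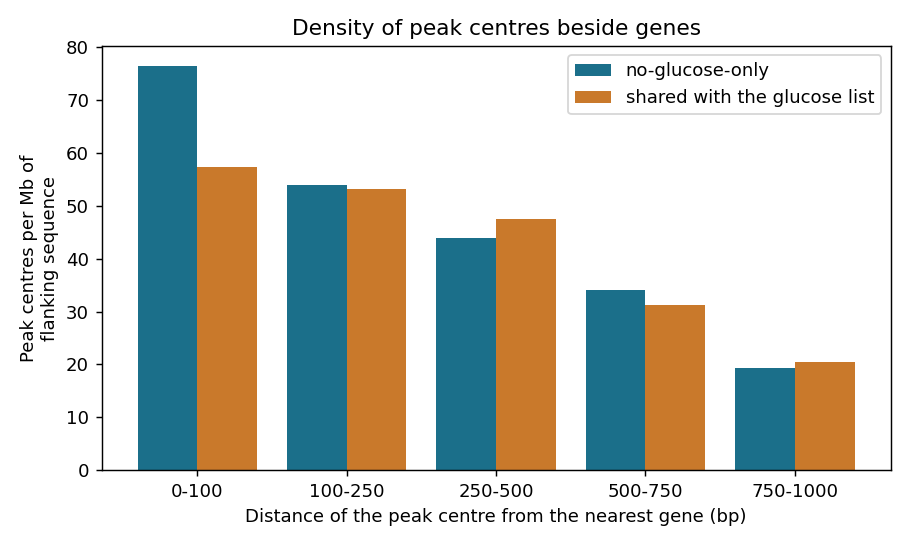
Bars give the number of peak centres per Mb of flanking sequence at each distance in bp from the nearest protein-coding gene, for no-glucose-only peaks and for peaks shared with the glucose list. Density is highest within 100 bp of a gene, at 76.4 and 57.2 centres per Mb.

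Short spaces between genes held more centres per base than long ones. Spaces of up to 500 bp had 109 centres per Mb of flank, those of 500 to 1000 bp 68.9, those of 1 to 2 kb 42.3, those of 2 to 4 kb 38.1 and those above 4 kb 29.6. In a short space every base is close to a gene, so this count and the distances above are not separate observations. Shared peaks beside genes gave 113 and 23.6 centres per Mb in the shortest and the longest spaces. Although every centre lay outside gene bodies, 1094 of the 1117 peaks (97.9%) reached into one, and the median peak had 44.0% of its length inside genes. For shared peaks beside genes these values were 98.9% and 45.7%, so this was not particular to the set.

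For 591 peaks a single protein-coding gene lay within 1 kb of the centre, for 506 it was a pair and for 20 it was 3. With 47.1% (44.1 to 50.1) of the peaks between several candidate genes, a name given to a peak is that of its neighbour and not of a known target. The peaks lay on all 5 nuclear chromosomes, with 36.1 per 1000 protein-coding genes on chromosome 4, 36.8 on chromosome 2, 39.0 on chromosome 3, 43.8 on chromosome 5 and 44.3 on chromosome 1. Gene-poor windows and chromosome 2 between 3 and 4 Mb held 51 peaks of the no-glucose list. Of these, 5 belonged to the set (9.8%), against 26.9% over the whole list. The rule asks for a gene within 1 kb, so nothing is read from this share.

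The nearest glucose peak lay at a median of 9823 bp (9016 to 10926). It was within 500 bp for 32 peaks (2.86%), within 1 kb for 79 (7.07%, 5.64 to 8.74) and within 5 kb for 354 (31.7%). For 331 peaks it was over 20 kb away. The smallest gap, 28 bp, was found at AT4G20880 (score 199.89), followed by 57 bp at RALFL22 (301) and 69 bp at the clock regulator gene TIC (173). The smallest overlaps that kept a peak beside genes out of the set were 26 bp at GATA17 (172), 63 bp at AT1G16640 (249) and 196 bp at AT5G20885 (109). At the limit of distance, the outermost centres inside it were at KNAT3 (991 bp, score 145), AT4G19390 (987 bp, 166) and IGMT5 (984 bp, 123). The nearest centres beyond it were at AT4G01671 (1006 bp, 168), ATBCAT-5 (1009 bp, 238) and AT4G20000 (1013 bp, 487).

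Genes were assigned to a peak if its centre lay within 1 kb of them. By this rule 1639 of 27444 nuclear protein-coding genes (5.97%) lay beside a no-glucose-only peak, and this share is the background for every count of genes below. The genes had a median length of 2461 bp (2393 to 2524), against 2078 bp (2062 to 2093) over all genes. A glucose peak touched 206 of them (12.6%, 11.0 to 14.3) at the gene or its flanks, and 18.1% of all protein-coding genes. The rule removed peaks that overlap a glucose peak and so bears on this share, although a glucose peak may lie elsewhere at the same gene. How far it does was not tested, and nothing is read from the share. The other 1433 genes (87.4%) were not touched, and counts of untouched genes in the groups below stand against that share. A shared peak was centred within 1 kb, outside genes, for 1593 of the 27444 genes (5.8%), the background for counts beside shared peaks.

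Of 32 gene groups defined by name, 20 had a share above the background, and the interval of 1 group, the WRKY factors, lay wholly above it. No interval lay wholly below it. The groups hold genes matched by symbol or synonym, so each share is of matched genes and not of a whole family. Nor need a counted gene be the nearest to the centre. Among genes named below, another lay nearer for WRKY33, HAB1, BBX13, bZIP3, MYB11, JAZ3, JAZ7, MPK8, PSBR, RPL18, PIP1C, TIP2;2, NRT2.5 and AT1G72125. The homeobox genes BLH3 (354), HDG11 (196) and HAT9 (188) and the bHLH gene NAI1 (307), beside the set, were not matched. The intervals are not adjusted for the 32 groups, and no test was made. The 9 groups of transcription factors together had a gene beside such a peak in 49 of 633 cases (7.74%, 5.78 to 10.1), hormone groups in 19 of 312 (6.09%, 3.71 to 9.35) and signalling groups in 15 of 180 (8.33%, 4.74 to 13.4). These shares are near the background and are no result about the groups.

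WRKY factors, which bind W-box elements and act in defence, senescence and nutrient responses, had 12 of 72 genes beside a no-glucose-only peak (16.7%, 8.92 to 27.3). Each of the 12 had its own peak, with scores from 108 to 622 and a median of 175.44. A glucose peak touched 1 of the 12 genes, close to the share over all genes beside the set. WRKY36 had the highest score. WRKY33, a regulator of camalexin synthesis and defence against fungi, had a score of 408, although AT2G38465 lay nearer to that centre. WRKY39 had 284, and WRKY18, a partner of WRKY40 in the control of immunity, had 218. WRKY70, which links salicylic acid and jasmonate signalling, had 206, and WRKY6, a factor of senescence and phosphate transport, had 195.94. WRKY40 itself had 118, and WRKY63, listed as ABO3 and named for its ABA response, had 139. Among WRKY genes, 8 of 72 (11.1%, 4.92 to 20.7) lay beside a shared peak, an interval that overlapped the other. At a score of 200 or more 5 WRKY genes remained beside the set (6.94%, 2.29 to 15.5), against 1.52% of all genes. With flanks of 500 bp the WRKY share was 9.72% (4.0 to 19.0) against 4.2% of all genes, and its interval then included the background.

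NAC factors, the family of ANAC060 itself, had 9 of 101 genes beside the set (8.91%, 4.16 to 16.2) and 3 of 101 beside shared peaks (2.97%, 0.617 to 8.44). ORE1, listed as NAC6 and known as a promoter of leaf senescence, had a score of 255 with a centre 408.5 bp from the gene. Its sister gene ORS1, listed as NAC3, had 104. NAC046, another senescence factor, had 182. NAC042, also called JUNGBRUNNEN 1 and known to delay senescence, had 102. NAC13, a membrane-bound factor of mitochondrial stress signalling, had 189. The highest score in the family was that of NAC084 (273), and most of the 9 lay below 200.

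ERF and DREB factors had 5 of 62 genes beside the set (8.06%, 2.67 to 17.8) and 12 of 62 beside shared peaks (19.4%, 10.4 to 31.4). ERF7, a repressor in ABA responses, had 264, RAP2.10 had 251, the cytokinin response factor gene CRF3 had 221 and the drought factor gene DREB2B had 188. Zinc-finger factors of the C2H2, DOF, BBX and GATA classes had 8 of 88 (9.09%, 4.01 to 17.1). Among them were CDF2, a cycling DOF factor of flowering time (235), BBX13 (194) and GATA11 (147). CO, the photoperiod factor CONSTANS, shared a peak of 116 with bZIP3. R2R3 and related MYB factors had 4 of 125 (3.20%, 0.879 to 7.99), with MYB109 at 245 and the flavonol regulator gene MYB11 at 112. Homeobox factors matched by name had 4 of 64 (6.25%, 1.73 to 15.2), and HB5 (227) and HB23 (207) were both touched by a glucose peak as well. LBD factors had 3 of 40, bHLH factors 2 of 28 and bZIP factors 2 of 53, all with intervals that included the background.

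Hormone genes, at the background share as a whole, were spread over the pathways. Ethylene genes had 3 of 29 (10.3%, 2.19 to 27.4), EBF2 and the receptor genes ERS2 (196.61) and ETR2 (129). Of these, ERS2 was also touched by a glucose peak. Brassinosteroid genes had 3 of 28 (10.7%, 2.27 to 28.2). BEH2, a relative of the factor BZR1, had 332, BIN2, the kinase that restrains brassinosteroid signalling, had 324, and BSK6 had 136. A glucose peak also touched BEH2, and the one nearest to its peak here was 537 bp away. The gibberellin genes had 2 of 25, the DELLA repressor gene RGA, listed as RGA1 (341), and the catabolic oxidase gene GA2OX6 (193). Both of these genes were also touched by a glucose peak. The glucose peak nearest to the RGA1 peak was 1815 bp away, and for GA2OX6 it was 102 bp away. Jasmonate repressors of the JAZ family had 3 of 12 (25%, 5.49 to 57.2), namely JAZ2, listed as TIFY10B (257), JAZ7 (201.5) and JAZ3 (102), and a glucose peak also touched JAZ2 and JAZ3. Cytokinin genes had 4 of 60, among them the response regulator genes ARR1, listed as RR1 (221), and ARR5, listed as RR5 (188), and the oxidase gene CKX5 (215). These 3 genes were all touched by a glucose peak as well. Beside shared peaks lay 4 of 12 JAZ genes (33.3%, 9.92 to 65.1) and 5 of 28 brassinosteroid genes (17.9%, 6.06 to 36.9). The same counts were 2 of 29 for ethylene, 1 of 25 for gibberellin and 1 of 60 for cytokinin genes.

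ABA receptors and phosphatases had 1 of 26 genes beside the set (3.85%, 0.0973 to 19.6), the phosphatase gene HAB1 at a score of 136, and 6 of 26 beside shared peaks (23.1%, 8.97 to 43.6). The HAB1 peak was centred 965.5 bp from the gene, with AT1G72790 nearer. ABF1, an ABA-response bZIP factor gene, was not in this list or, by name, in the bZIP list. A peak of 222 was centred 365.5 bp from ABF1, and the nearest glucose peak was 34560 bp away. The circadian clock genes had 2 of 26 (7.69%, 0.946 to 25.1), TOC1 at 237 and RVE2 at 159, and 9 of 26 beside shared peaks (34.6%, 17.2 to 55.7). PUB and ATL ubiquitin ligases had 1 of 38, PUB39 at 215, also touched by a glucose peak, and 9 of 38 beside shared peaks (23.7%, 11.4 to 40.2). In these 3 groups the count beside shared peaks was the higher one, with intervals above the 5.8% of all genes, but the intervals overlapped and the difference was not tested. Aux/IAA and ARF genes had 1 of 52, ARF10 at 189, and SAUR genes had 2 of 80, with SAUR55 (AT5G50760) at 276.

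Among signalling genes, calcium sensors and their kinases had 8 of 91 (8.79%, 3.87 to 16.6). CPK32, a calcium-dependent kinase of ABA signalling, had 427, the calmodulin gene CAM5 had 409, the sensor gene CBL9 had 262 and the kinase gene CIPK3 had 183. The CAM5 centre lay 16.5 bp from the gene and had the proteasome subunit gene PAG1 within 1 kb as well. MAP kinase genes had 6 of 51 (11.8%, 4.44 to 23.9), with MPK7 at 259.83, MPK8 (ATMPK8) at 245 and the stress kinase gene MPK6 at 158. Of these, MPK8 was also touched by a glucose peak. Beside shared peaks lay 7 of 51 MAP kinase genes (13.7%, 5.70 to 26.3) and 5 of 91 calcium genes (5.49%, 1.81 to 12.4).

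Nutrient groups together had 4 of 110 genes beside the set (3.64%, 1.00 to 9.05), an interval that included the background. No sugar transporter of 42 lay beside the set (0%, up to 8.41) and no trehalose phosphate gene of 21 (0%, up to 16.1). Both intervals included the background, and ESL1 and the glucose exporter gene ERDL6, both beside the set, were not in the sugar transporter list by name. With flanks of 2 kb the sugar transporter share was 9.52% (2.66 to 22.6), against 7.82% of all genes. Of the 5 BT genes only BT2 was found, and nitrate and ammonium transport had 3 of 42 (7.14%, up to 19.5), with NPF5.13 (AT1G72125) at 195, the peptide transporter gene PTR1 at 188 and NRT2.5, a high-affinity nitrate transporter gene, at 102. CLC-A, a nitrate transporter gene beside a peak of 275, was not in that list by name. Wall groups together had 7 of 134 (5.22%, 2.13 to 10.5), near the background, with 1 of 68 xyloglucan and expansin genes (EXPA9, 129), 2 of 25 pectin galacturonosyltransferases and 4 of 41 genes of the cellulose synthase family. In the comparison groups, photosystem and antenna genes had 1 of 40 (PSBR, 250) and ribosomal protein genes had 4 of 51 (7.84%, 2.18 to 18.9), with RPL18 at 324. The centre of that peak lay 643 bp from RPL18 and 10 bp from TOPP9. Heat shock factors and proteins had 1 of 49, HSP93-III at 123, and aquaporins 2 of 34, PIP1C (198) and TIP2;2 (188).

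**Figure D5:**
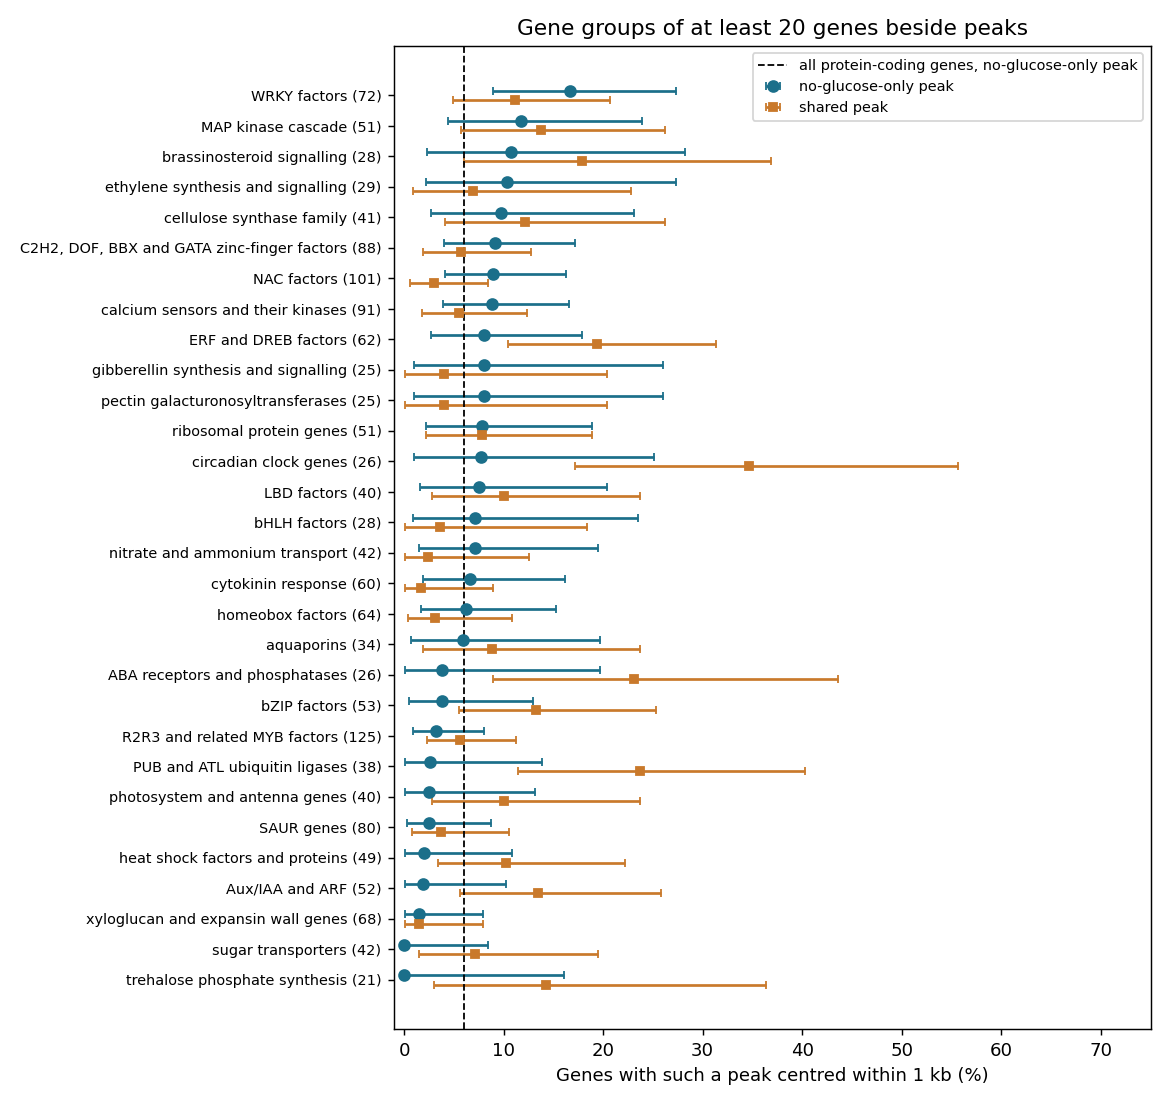
Points give the percentage of genes in each group of at least 20 genes (number in brackets) with a no-glucose-only or a shared peak centred beside genes within 1 kb, with exact 95% binomial intervals, and the dashed line marks the no-glucose-only share of all protein-coding genes, 5.97%. Among the intervals for no-glucose-only peaks, that of the WRKY factors (8.92 to 27.3) alone leaves out the dashed line. The intervals for shared peaks belong to another background, 5.8%, and several lie above it, as for clock genes (17.2 to 55.7), PUB and ATL ubiquitin ligases (11.4 to 40.2) and ERF and DREB factors (10.4 to 31.4).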

How the data were processed

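Per the submitters' processing notes, FastQC and BWA 0.7.15-r1140 were applied and the build was TAIR10. Per the file headers, MACS called the peaks with its local background model off. The glucose header adds that no shift model was used and that p had to reach 0.001. The version of MACS was not stated. Peak scores were used as deposited by the authors, from 1 precipitate against 1 input per list.

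Gene positions and names came from the RefSeq table of TAIR10.1. Moving all no-glucose peak centres by 5 kb to either side changed their gene-body share from 38.3% to 66.5%. Symbols and synonyms gave 32 gene groups, and 38 matches to other genes were removed by hand. Members and groups were chosen with earlier results of these data known. Genes were named for the 20 highest peaks, up to 4 per group and the peaks nearest the limits. Others in a group, such as NAC042, ORS1, WRKY6, WRKY40, WRKY70 and ABO3, were added after their values were seen. So were genes that no group matched, such as BLH3 and ABF1. Motifs and the side of the gene were not analysed here. Python 3.11.15, numpy 2.4.6, pandas 2.3.3 and scipy 1.17.1 were used. Calls of position and overlap were tested on 1000 simulated peaks of an artificial chromosome. Its genes were evenly spaced and far apart, so peaks with several genes within 1 kb were not tested. Shares have exact binomial and medians order-statistic intervals, at 95%.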

Additional observations from a re-analysis of the deposited data

How the results depend on the processing

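With flanks of 500 bp the median score of the set was 146, below the interval of the main median, and none of the 32 gene groups had an interval above the background, the WRKY share being 9.72% against 4.2%. The 236 peaks this removed had a median score of 184. At a score of 200 or more, 295 peaks remained, with a median score of 259 and 416 genes beside them. The limit on the score itself sets these values. The number of peaks, the number of genes and the median gap stayed within 1.5 times, or within the interval of the median, under flanks of 2 kb, glucose peaks widened by 500 bp, removal only by an overlap of 50% of the peak, and exclusion of gene-poor windows and chromosome 2 from 3 to 4 Mb. The WRKY interval lay above the background in all of these, at a score of 200 or more, and when genes were counted by any touch of their 1 kb flank. JAZ repressors joined it at 200 or more, with 16.7% of 12 genes (2.09 to 48.4) against 1.52% of all genes. These were JAZ2, which a glucose peak also touched, and JAZ7, whose score of 201.5 was just above the limit. Beside shared peaks of any score lay 4 of the 12 JAZ genes (33.3%, 9.92 to 65.1), against 5.8% of all genes. With flanks of 2 kb the share of sugar transporters moved from 0 to 9.52%, and that of Aux/IAA and ARF genes from 1.92% to 11.5%. Both intervals at 2 kb included the 7.82% of all genes. The planned values for motifs and gene side were not run. No paired analysis was possible because each group has 1 library. Depth is unknown, so weak binding below either list's minimum score cannot be judged.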

Other observations

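Genes outside the groups were picked after their values were seen and are given as values only. GDH2, a glutamate dehydrogenase gene, lay 500.5 bp from the centre of a peak with a score of 434, and no glucose peak came within 34827 bp. ERDL6, a vacuolar glucose exporter gene, lay beside a peak of 346. A peak of 371 nearest to AT3G26100 also had RGS1, a glucose sensor gene, within 1 kb. DYL1, also called DRM1 and known as a dormancy-associated gene, had one of the lowest scores, 100.17.

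Of the 1639 genes beside the set 24 had a pair of such peaks, and none had more. They included AT1G68670 (best score 353), the phosphate sensor gene SPX2 (252), MYB52 (182) and MPK18 (137).

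At 37 of the 1117 centres (3.31%, 2.34 to 4.54) another annotated gene was present, a long non-coding RNA in 18 cases and a transfer RNA in 3. For shared peaks beside genes this was 58 of 1045 (5.55%, 4.24 to 7.12), and the difference was not tested.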
